A study of Mus musculus with 12 samples.

Results

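The transcripts described here encode 10 liver-made proteins of blood clotting: prothrombin (F2), factors V, VII, IX, X, XI and XII (F5, F7, F9, F10, F11 and F12), protein C (Proc), antithrombin (Serpinc1) and heparin cofactor II (Serpind1). They were chosen by gene symbol, and 13 of the 45037 probe sets on the arrays carried 1 of these symbols alone, which makes them 10 of the 18193 genes measured. Where a gene had several, its brightest probe set was used. No filter on low values was used, so that all 10 entered every test.

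Livers came from 12 mice in 4 groups of 3 animals: Atf6a-/- mice given tunicamycin (TM), wild-type (Atf6a +/+) mice given TM, Atf6a-/- mice given vehicle and wild-type mice given vehicle. TM was injected into the peritoneum at 1 mg/kg in 150 mM dextrose, and livers were taken 34 h later, after a short fast. One source label says 8 h, but the titles and the protocol say 34 h, which was taken as the time. Animals varied in age and sex, with neither stated for each mouse. ATF6a is a membrane protein of the endoplasmic reticulum (ER) whose cleaved part is a transcription factor, and TM blocks N-linked glycosylation, so that unfolded glycoproteins gather in the ER. The comparison asked how loss of ATF6a alters the hepatic response to lasting ER stress.

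Clotting factors are zymogens and cofactors that hepatocytes fold, glycosylate and secrete, and most of them are N-glycoproteins. The contact factors XII and XI and the tissue factor partner factor VII start the cascade, factors IX and X carry it on, and prothrombin, cut with the help of factor V, gives thrombin. Protein C, antithrombin and heparin cofactor II hold it back, and prothrombin, factors VII, IX and X and protein C need vitamin K for the carboxylation of their glutamates. Genes of this family are classic targets of the liver factors HNF4, HNF1 and C/EBP.

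Promoter sequences of 5 members are shown because they cover the span of the response: F7 and Serpind1 had the largest differences, F9 and F11 lay in the middle, and Serpinc1 had the smallest. Each run holds the 250 bases before the annotated start of the gene, on its own strand, from RefSeq (GRCm38.p6), whose promoter table held 9 of the 10 members and not Proc. Capitals mark matches to an HNF4-type motif (CAAAGNNCA) or a C/EBP-type motif (TTGCNNAA) on either strand, letters that were chosen after the sequences had been seen.
F7, chr8:13025784-13026033, plus strand: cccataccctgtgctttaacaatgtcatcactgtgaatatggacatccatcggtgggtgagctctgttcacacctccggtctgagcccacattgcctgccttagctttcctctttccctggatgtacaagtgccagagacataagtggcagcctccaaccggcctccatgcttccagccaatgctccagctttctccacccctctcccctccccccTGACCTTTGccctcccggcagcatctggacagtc
F9, chrX:59999214-59999463, plus strand: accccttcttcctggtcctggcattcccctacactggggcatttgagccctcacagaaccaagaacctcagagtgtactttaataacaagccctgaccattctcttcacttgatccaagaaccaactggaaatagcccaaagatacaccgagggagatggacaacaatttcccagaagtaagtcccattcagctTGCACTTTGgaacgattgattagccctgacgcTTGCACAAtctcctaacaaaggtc
F11, chr8:45262032-45262281, minus strand: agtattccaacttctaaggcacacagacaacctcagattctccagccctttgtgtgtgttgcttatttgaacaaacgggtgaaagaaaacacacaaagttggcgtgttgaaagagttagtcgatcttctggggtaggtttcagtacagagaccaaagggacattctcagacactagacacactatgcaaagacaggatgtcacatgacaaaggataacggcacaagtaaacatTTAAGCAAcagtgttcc
Serpinc1, chr1:160978333-160978582, plus strand: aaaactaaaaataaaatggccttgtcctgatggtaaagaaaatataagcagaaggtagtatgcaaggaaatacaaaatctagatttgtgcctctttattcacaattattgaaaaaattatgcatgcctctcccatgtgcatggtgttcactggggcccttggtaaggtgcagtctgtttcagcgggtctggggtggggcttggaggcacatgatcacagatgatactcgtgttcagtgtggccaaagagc
Serpind1, chr16:17331121-17331370, plus strand: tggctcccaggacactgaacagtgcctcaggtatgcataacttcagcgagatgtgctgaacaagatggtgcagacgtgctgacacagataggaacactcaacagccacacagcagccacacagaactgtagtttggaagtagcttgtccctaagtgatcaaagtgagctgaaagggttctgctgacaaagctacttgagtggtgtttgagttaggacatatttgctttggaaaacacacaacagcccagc

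An HNF4-type match lay 34 to 26 bases before the start in F7 and 56 to 48 bases before it in F9, in 2 of the 9 members against 5.49% of the 32851 promoters in the table. C/EBP-type matches lay in F9 and F11, in 2 of 9 against 9.56% of promoters, and overlapped no HNF4-type match. The HNF1-type motif GTTAAT and the ER stress response element (ERSE) had no match in the 9 members, against 6.43% and 0.113% of promoters. With the 50 bases after the start included, HNF4-type matches were in 4 of 9 members, now also Serpinc1 and Serpind1, C/EBP-type matches in 3 and the HNF1-type motif in F2. The shares of all promoters in that longer window were 6.36%, 10.8% and 7.1%. F7, with an HNF4-type match, and Serpind1, without one in the 250 bases, both had a larger TM difference than F9, which had both kinds of match. These are matches of letters in 1 window and say nothing of binding.

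Several measures of the arrays moved with the groups. Principal component 1 over all 45037 probe sets took up 68.3% of the variance, with Atf6a-/- TM arrays at 113.6 to 119.9, wild-type TM arrays at -12.9 to 29.5 and all vehicle arrays at -61.5 to -55.8. Animal 2 of the wild-type TM group lay at 29.5 and stood apart from its group. Hybridisation spike-ins had log2 means of 8.47 in Atf6a-/- TM, 8.70 in wild-type TM, 8.96 in Atf6a-/- vehicle and 9.02 in wild-type vehicle livers. The difference between 3′ and 5′ actin probe sets, a sign of RNA integrity, was 0.88 to 1.00 log2 units in Atf6a-/- TM, 1.12 to 1.20 in wild-type TM, 1.08 to 1.23 in Atf6a-/- vehicle and 1.00 to 1.32 in wild-type vehicle livers, and its part in the results was not tested. Atf6 itself, by its brightest probe set, was at 6.60 to 6.88 in Atf6a-/- vehicle livers, against 8.42 to 8.54 in wild-type vehicle livers. After TM it was at 9.23 to 9.81 in Atf6a-/- livers, against 9.30 to 9.72 in wild-type livers, so that the groups overlapped there. Its other 2 probe sets were higher in Atf6a-/- TM livers, at 8.80 to 8.89 against 8.05 to 8.45 in wild-type TM livers and at 8.97 to 9.11 against 7.36 to 7.97, and lower in Atf6a-/- vehicle than in wild-type vehicle livers. The TM arrays thus gave no check of the genotype label by this gene, and the deleted part is not given in the sources used here. The 8 hepatocyte markers measured had a mean log2 level of 12.83 to 13.33 in Atf6a-/- TM, 13.70 to 14.07 in wild-type TM, 14.18 to 14.44 in Atf6a-/- vehicle and 14.31 to 14.42 in wild-type vehicle livers, so the label of liver held in each group. In whole liver, fewer hepatocytes and less of a transcript per hepatocyte cannot be told apart by a transcript alone. The hepatocyte markers did not move alike. After TM in Atf6a-/- livers 4 of 8 fell and 4 did not pass, with a median difference over the list of -0.62. Of all genes 12.8% fell, and 28.0% of those at or above the mean level of F11, the dimmest member. Rbp4 differed by 0.11, Ahsg by -0.06 and Alb by -0.48, while Apoc3, Cps1 and Apoa1 fell, with differences of -5.08, -1.96 and -1.86. Ttr also fell, with means of 13.75 after TM and 14.51 after vehicle. Rbp4, Ahsg and Alb had means of 13.89 to 14.75 in the Atf6a-/- groups, and the brightest value on any array was 14.91. How far signal near the top of the scale narrowed their differences was not tested. The clotting transcripts had a median of -3.38 in the same contrast. Levels below are log2 RMA values, differences are those between group means on that scale, with the SE of the limma fit, and p-values rest on the spread between animals.

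In Atf6a-/- livers TM lowered 9 of the 10 transcripts at adjusted p under 0.05 and over 1.5-fold, against 12.8% of all genes lower by the same rule and 28.0% of the 5007 genes with a mean at or above that of F11, the lowest among the members. The median difference of the 10 was -3.38, against -0.015 over all genes. In wild-type livers TM lowered 3 of 10 (F10, F11 and Proc), against 3.86% of all genes and 8.39% of the genes at or above F11, and the median of the 10 was -0.61, against -0.023 over all genes. The direct comparison of genotypes and the interaction, given further on, reuse these arrays. All 9 calls in Atf6a-/- livers held under each of the 29 alternatives run. Scaling to the spike-ins moved the median of all probe sets by 0.49 in Atf6a-/- and 0.32 in wild-type livers, and scaling to Btf3 and Ppia by -0.52 and -0.075. All 10 differences were negative in both genotypes, except with the spike-in scaling for Serpinc1 in both and for F2 and F5 in wild-type livers, and except for F5 in wild-type livers without wild-type TM animal 2. Every member had its lowest mean in Atf6a-/- TM livers and its next lowest in wild-type TM livers. All 3 Atf6a-/- TM animals lay below all 3 Atf6a-/- vehicle animals in 10 of 10 transcripts. They did so in 23.7% of all genes and 35.2% of those at or above F11. The wild-type TM animals lay below all wild-type vehicle animals in 6 of 10 (F7, F10, F11, Proc, Serpinc1 and Serpind1). They did so in 15.0% of all genes and 23.0% of those at or above F11.

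**Figure D1:**
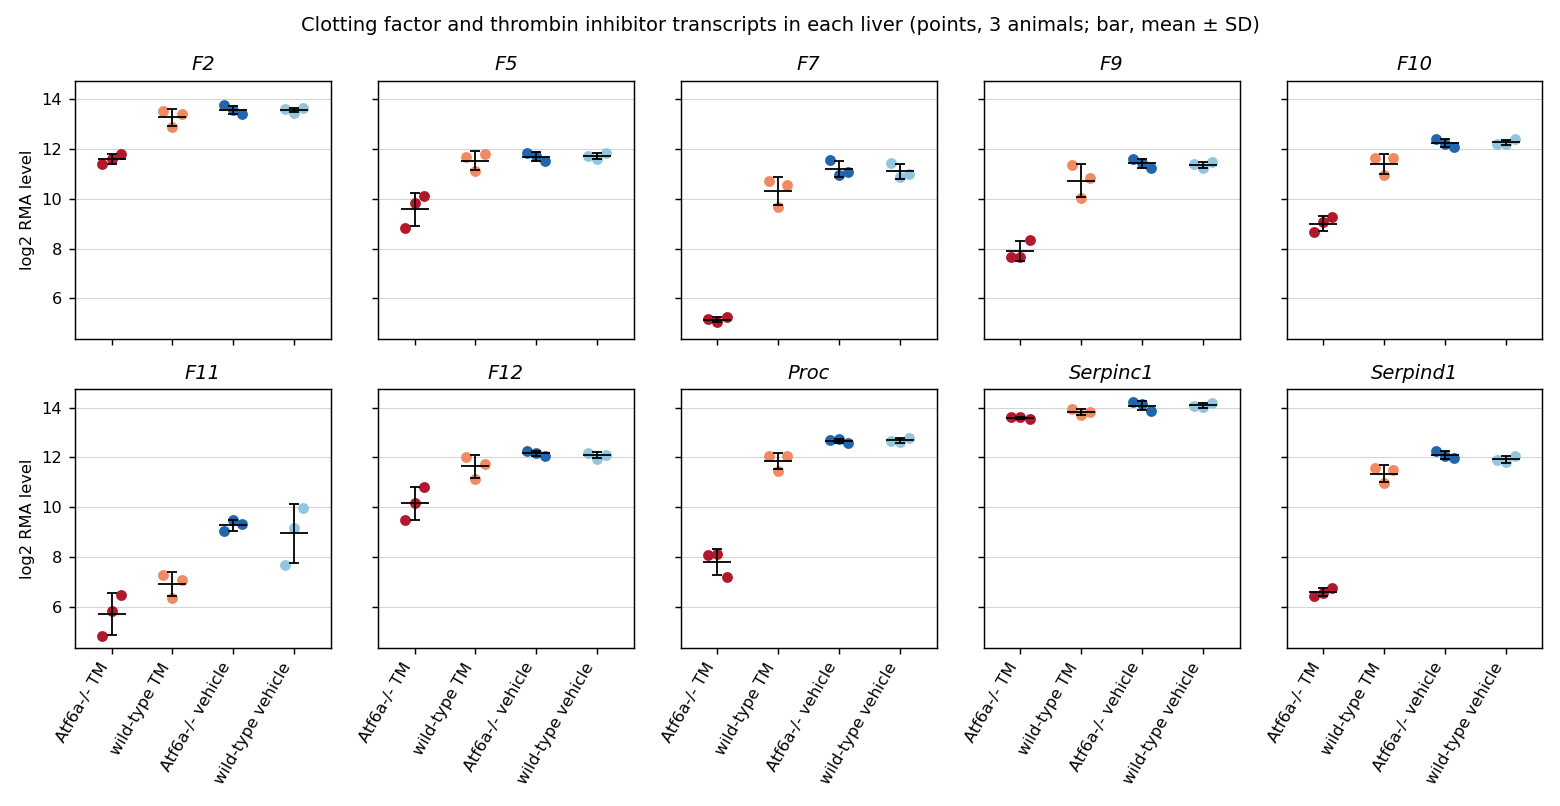
Log2 RMA level (vertical axis, shared by all panels) of each of the 10 transcripts in the 4 groups, with a point for each of the 3 animals and a bar for the mean ± SD. Atf6a-/- TM livers are lowest in every panel, with F7 at 5.04 to 5.25 and Serpinc1 at 13.53 to 13.62, and the 2 vehicle groups overlap in all of them.

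The 5 vitamin K-dependent members all fell in Atf6a-/- livers, by differences between -6.04 and -1.97. F7, the protease that binds tissue factor, had log2 levels of 5.15, 5.04 and 5.25 in Atf6a-/- TM livers, 10.71, 9.66 and 10.54 in wild-type TM livers, 11.56, 10.94 and 11.07 in Atf6a-/- vehicle livers and 11.46, 10.86 and 10.99 in wild-type vehicle livers. The Atf6a-/- TM animals were thus more than 4 log2 units below any other animal. TM lowered F7 by 66.0-fold in Atf6a-/- livers (-6.04 ± 0.26, adjusted p = 2.18e-08), while the wild-type difference of -0.80 ± 0.26 did not pass (adjusted p = 0.0964). In Atf6a-/- TM livers 56.0% to 58.9% of probe sets were dimmer than F7, against 93.8% to 96.6% in wild-type TM livers. Its signal there lay close to the array medians, of which the highest was 4.71.

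Proc encodes the zymogen of the anticoagulant protease that cuts factors V and VIII. Its levels were 8.07, 8.12 and 7.19 in Atf6a-/- TM livers, 12.05, 11.47 and 12.04 in wild-type TM livers, 12.69, 12.74 and 12.57 in Atf6a-/- vehicle livers and 12.67, 12.62 and 12.80 in wild-type vehicle livers. The vehicle groups were nearly the same and narrow, and both TM groups lay below them without overlap. Proc fell 29.3-fold in Atf6a-/- livers (-4.87 ± 0.23, adjusted p = 3.69e-08) and 1.79-fold in wild-type livers (-0.84 ± 0.23, adjusted p = 0.0461). The wild-type call was lost without wild-type TM animal 2 (-0.65, adjusted p = 0.151), and in 16 of the 29 alternatives in all, with adjusted p from 0.00584 to 0.213.

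F9, the factor missing in haemophilia B, was at 7.66, 7.67 and 8.36 in Atf6a-/- TM livers, 11.34, 10.03 and 10.83 in wild-type TM livers, 11.61, 11.44 and 11.24 in Atf6a-/- vehicle livers and 11.40, 11.24 and 11.48 in wild-type vehicle livers. Wild-type TM animal 1 overlapped the wild-type vehicle range, and animal 2 lay more than 1 log2 unit below it. F9 fell 11.6-fold in Atf6a-/- livers (-3.53 ± 0.28, adjusted p = 1.85e-06), and its wild-type difference was -0.64 ± 0.28 (adjusted p = 0.252).

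F10 encodes the protease on which both arms of the cascade meet. Levels were 8.67, 9.07 and 9.27 in Atf6a-/- TM livers, 11.62, 10.95 and 11.65 in wild-type TM livers, 12.42, 12.22 and 12.09 in Atf6a-/- vehicle livers and 12.20, 12.21 and 12.39 in wild-type vehicle livers. The 4 groups formed 3 steps, with no overlap between Atf6a-/- TM, wild-type TM and the vehicle animals. F10 fell 9.43-fold in Atf6a-/- livers (-3.24 ± 0.19, adjusted p = 2.33e-07) and 1.81-fold in wild-type livers (-0.86 ± 0.19, adjusted p = 0.0204). The wild-type call was lost in 8 of the 29 alternatives, and its adjusted p ran between 0.0049 and 0.255. Among these 8 were the mean of its 3 probe sets (-0.64, adjusted p = 0.0743) and the fits without wild-type vehicle animal 2 or 3 (adjusted p = 0.0553 and 0.0829). Both dimmer F10 probe sets fell in Atf6a-/- livers too, by 3.47 and 3.96, and the dimmest had a mean of 4.67 after TM there, under the highest array median, so that its difference is a lower bound. In wild-type livers neither dimmer probe set passed, with means of 8.20 and 8.05 after TM against 8.77 and 8.55 after vehicle.

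F2, the precursor of thrombin, was at 11.40, 11.61 and 11.78 in Atf6a-/- TM livers, 13.51, 12.90 and 13.39 in wild-type TM livers, 13.75, 13.55 and 13.40 in Atf6a-/- vehicle livers and 13.62, 13.46 and 13.64 in wild-type vehicle livers. Its signal stayed near the top of the scale, with 98.2% to 98.4% of probe sets dimmer in Atf6a-/- TM livers. F2 fell 3.93-fold in Atf6a-/- livers (-1.97 ± 0.16, adjusted p = 2.24e-06), the smallest difference among the vitamin K-dependent members. In wild-type livers the difference was -0.30 ± 0.16 (adjusted p = 0.364), and it was 0.016 with the arrays scaled to the spike-ins.

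Among the factors that need no vitamin K, F5 encodes the cofactor that speeds the cleavage of prothrombin. F5 levels were 8.82, 9.82 and 10.10 in Atf6a-/- TM livers, 11.70, 11.10 and 11.80 in wild-type TM livers, 11.86, 11.72 and 11.52 in Atf6a-/- vehicle livers and 11.73, 11.60 and 11.83 in wild-type vehicle livers. Animal 1 of the Atf6a-/- TM group lay well below animals 2 and 3, and the wild-type TM animals overlapped the vehicle range except for animal 2. F5 fell 4.33-fold in Atf6a-/- livers (-2.12 ± 0.28, adjusted p = 9.13e-05, and -2.11 by its second probe set). The wild-type difference was -0.19 ± 0.28 (adjusted p = 0.813), and it was 0.13 with spike-in scaling and 0.028 without wild-type TM animal 2.

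F12, which starts the contact pathway, was at 9.50, 10.15 and 10.80 in Atf6a-/- TM livers, 12.02, 11.15 and 11.74 in wild-type TM livers, 12.27, 12.18 and 12.07 in Atf6a-/- vehicle livers and 12.20, 11.95 and 12.09 in wild-type vehicle livers. The 3 Atf6a-/- TM animals were spread over more than 1 log2 unit, all below the wild-type TM animals. F12 fell 4.06-fold in Atf6a-/- livers (-2.02 ± 0.28, adjusted p = 1.40e-04), and the wild-type difference was -0.44 ± 0.28 (adjusted p = 0.472).

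F11, the substrate of activated factor XII, had the widest spread between animals. It was at 4.83, 5.82 and 6.47 in Atf6a-/- TM livers, 7.29, 6.36 and 7.06 in wild-type TM livers, 9.04, 9.48 and 9.33 in Atf6a-/- vehicle livers and 7.66, 9.18 and 9.99 in wild-type vehicle livers. The Atf6a-/- TM and wild-type TM groups overlapped, which they did in no other member. F11 fell 11.9-fold in Atf6a-/- livers (-3.58 ± 0.52, adjusted p = 2.16e-04) and 4.12-fold in wild-type livers (-2.04 ± 0.52, adjusted p = 0.0377), the largest wild-type difference of the 10. The wild-type call was lost in 13 of 29 alternatives (adjusted p 0.0022 to 0.35), among them the fits that left out animal 2 or 3 of the wild-type TM group (0.119 and 0.0785) or of the wild-type vehicle group (0.122 and 0.143). Xist, the RNA that coats a silenced X chromosome, had levels of 12.29, 12.39 and 12.19 in Atf6a-/- TM, Atf6a-/- vehicle and wild-type vehicle animal 1, and of 5.37 to 6.68 in the other 9 mice. These 3 animals had the lowest F11 of their groups. No wild-type TM animal had a high Xist level (6.68, 5.61 and 5.56). High Xist was thus unevenly spread in the wild-type response, the comparison of genotypes after TM and the interaction. With the Xist level in the fit, the SE of the wild-type F11 difference was 0.36 and the difference -2.41 (adjusted p = 0.0022).

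The thrombin inhibitors differed widely in Atf6a-/- livers, with Serpind1 second to F7 in the size of its fall and Serpinc1 last. Serpind1, whose product inhibits thrombin on dermatan sulfate and heparin, was at 6.45, 6.55 and 6.75 in Atf6a-/- TM livers, 11.58, 10.96 and 11.52 in wild-type TM livers, 12.28, 12.04 and 11.96 in Atf6a-/- vehicle livers and 11.92, 11.80 and 12.07 in wild-type vehicle livers. The Atf6a-/- TM animals lay close together and more than 4 log2 units below the others. Serpind1 fell 45.6-fold in Atf6a-/- livers (-5.51 ± 0.16, adjusted p = 2.75e-09). The wild-type difference of -0.58 ± 0.16 missed both limits (1.49-fold, adjusted p = 0.0556), although those groups did not overlap.

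Serpinc1, the main plasma inhibitor of thrombin and factor Xa, was at 13.62, 13.62 and 13.53 in Atf6a-/- TM livers, 13.94, 13.71 and 13.85 in wild-type TM livers, 14.23, 14.13 and 13.87 in Atf6a-/- vehicle livers and 14.08, 14.01 and 14.20 in wild-type vehicle livers. At least 99.7% of probe sets were dimmer on every array, and the brightest value on any array was 14.91. Its difference of -0.49 ± 0.11 in Atf6a-/- livers passed the p limit (adjusted p = 0.00439) and not the fold limit (1.40-fold), and it was 0.0038 with spike-in scaling. In wild-type livers the difference was -0.26 ± 0.11 (adjusted p = 0.209), and 0.056 with that scaling. How far signal near the top of the scale narrows a difference was not tested.

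**Figure D2:**
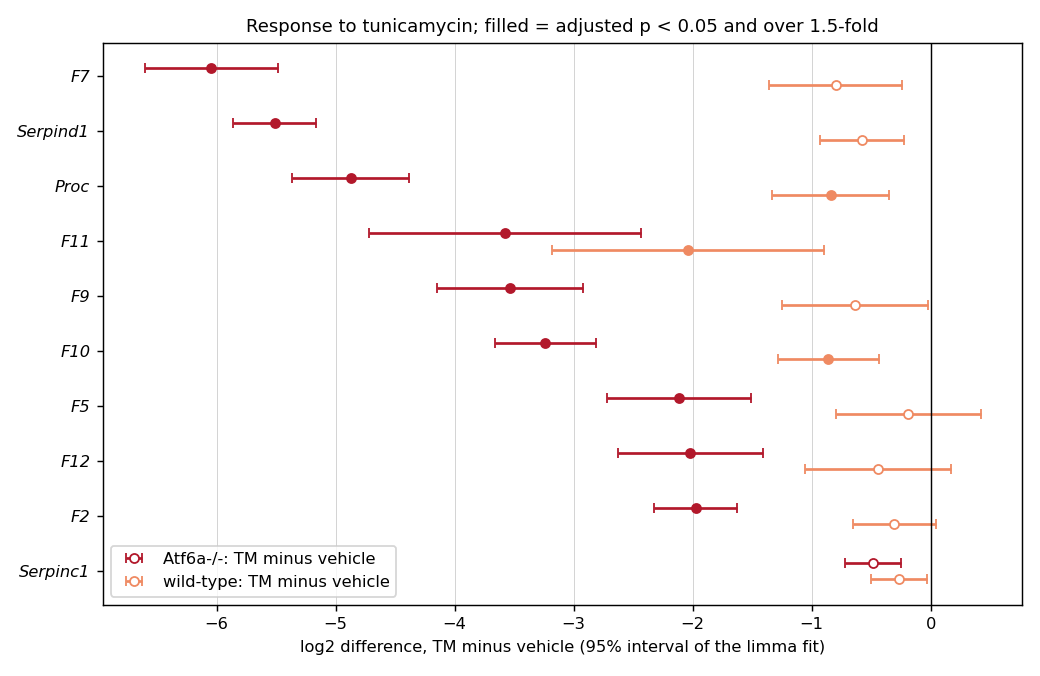
Log2 difference, TM minus vehicle (horizontal axis), of each transcript in Atf6a-/- and wild-type livers, as points with 95% intervals of the limma fit. Filled points passed adjusted p under 0.05 and 1.5-fold: 9 of 10 in Atf6a-/- livers, from F7 at -6.04 to F2 at -1.97, and F10, F11 and Proc in wild-type livers.

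Set directly against wild-type livers after TM, Atf6a-/- livers had lower levels of 8 of the 10 transcripts, against 8.45% of all genes lower by this rule and 21.0% of the genes at or above F11. The groups did not overlap in 9 of 10, against 16.2% of all genes and 28.0% of those at or above F11 in this direction. F7 was 35.7-fold lower (-5.16 ± 0.26, adjusted p = 1.96e-07), Serpind1 27.3-fold (-4.77 ± 0.16, adjusted p = 1.81e-08) and Proc 16.7-fold (-4.06 ± 0.23, adjusted p = 4.19e-07). F9 and F10 followed at 7.15-fold and 5.29-fold, and F5, F2 and F12 at 3.87-fold, 3.19-fold and 2.80-fold. F11 did not pass (-1.20 ± 0.52, 95% interval -2.34 to -0.05, adjusted p = 0.158), nor did Serpinc1 (-0.24 ± 0.11, 95% interval -0.48 to -0.01, adjusted p = 0.168). After vehicle 0 of 10 had an unadjusted limma p under 0.05 between the genotypes, and no share of all genes is given for that rule. By the rule for calls 0 of 10 differed, against 0.00550% of all genes. Those differences ran from -0.03 in Proc to 0.34 in F11, the groups overlapped in all 10 (4.18% of all genes had higher and 3.91% lower non-overlapping groups), and the widest 95% interval was that of F11 at -0.80 to 1.48. Without wild-type vehicle animal 1 the F11 difference was -0.30.

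The interaction of genotype and TM asks whether the 2 responses differed from each other, and 8 of 10 members passed, against 6.69% of all genes in this direction and 17.3% of the genes at or above F11. It was -5.25 ± 0.36 for F7 (adjusted p = 7.87e-06), -4.94 ± 0.23 for Serpind1 (adjusted p = 7.53e-07) and -4.03 ± 0.32 for Proc (adjusted p = 2.05e-05). The interactions of F9, F10, F5 and F2 were -2.90, -2.38, -1.93 and -1.67. That of F12, at -1.58 ± 0.40 (adjusted p = 0.0247), was lost when animal 1 or 3 of the wild-type TM group, 1 or 2 of the Atf6a-/- vehicle group or 2 or 3 of the wild-type vehicle group was left out (adjusted p = 0.0541 to 0.0661). F11 (-1.54 ± 0.74, 95% interval -3.15 to 0.08, adjusted p = 0.263) and Serpinc1 (-0.22 ± 0.15, 95% interval -0.56 to 0.11, adjusted p = 0.48) did not pass.

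Animals of a group deviated together. Wild-type TM animal 2 was the lowest of its group in 10 of 10 transcripts, by a mean of -0.45 log2 units from the group mean, and it was the animal that stood apart on principal component 1. Atf6a-/- TM animal 1 was the lowest of its group in 7 of 10, and Atf6a-/- TM animal 3 was the highest in 8 of 10 but the lowest in Proc and Serpinc1. Without wild-type TM animal 2, 1 of the 10 passed in wild-type livers, F10 at -0.63. The other differences were then -0.12 for F2, 0.028 for F5, -0.48 for F7, -0.29 for F9, -1.77 for F11, -0.20 for F12, -0.65 for Proc, -0.20 for Serpinc1 and -0.38 for Serpind1, all nearer to 0 than with it apart from the change of sign in F5.

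**Figure D3:**
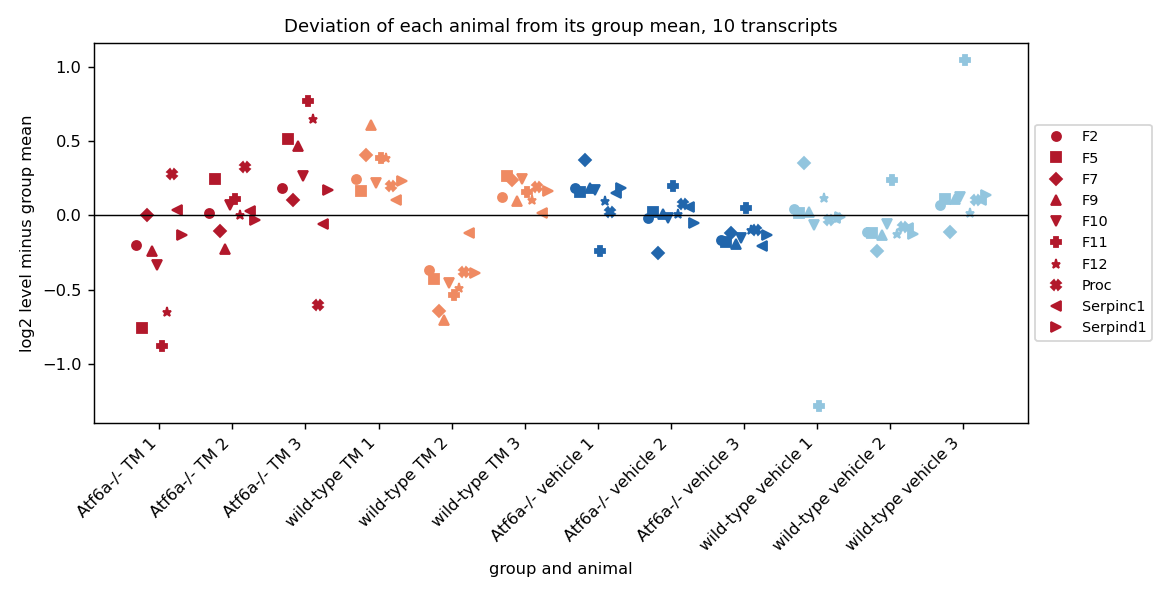
Log2 level minus group mean (vertical axis) of the 10 transcripts in each of the 12 animals, with 1 symbol per transcript and 1 colour per group. Wild-type TM animal 2 lies below its group mean in 10 of 10 transcripts, and F11 has the widest scatter among the vehicle animals.

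Some members lie beside other clotting genes. F7, F10 and Proz, which encodes the vitamin K-dependent protein Z, neighbour each other on mouse chromosome 8, and F11 lies next to Klkb1, the gene of plasma prekallikrein. Proz was lower by 7.16 ± 0.15 in Atf6a-/- livers (adjusted p = 5.39e-10), a lower bound since its mean after TM there was 4.41, and by 1.37 ± 0.15 in wild-type livers (adjusted p = 2.82e-04). Klkb1 had a mean of 5.03 in Atf6a-/- TM livers, 9.87 in wild-type TM livers, 11.06 in Atf6a-/- vehicle livers and 10.88 in wild-type vehicle livers, and it fell by 6.03 ± 0.21 in Atf6a-/- livers (adjusted p = 7.14e-09) and by 1.01 ± 0.21 in wild-type livers (adjusted p = 0.0128). The falls of neighbours in Atf6a-/- livers thus spanned 3.24 to 7.16 for F10, F7 and Proz, and 3.58 to 6.03 for F11 and Klkb1, and whether they differed was not tested. Kng1, which encodes the contact cofactor kininogen, fell by 1.67 ± 0.17 in Atf6a-/- livers and differed by -0.33 ± 0.17 in wild-type livers. Its second, dimmer probe set fell further, with means of 9.53 after TM and 12.67 after vehicle in Atf6a-/- livers. The brightest had 12.25 and 13.92 there. In wild-type livers the second was at 12.08 after TM and 12.49 after vehicle.

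Other genes of haemostasis moved in both directions. Beside the shares of genes called lower given above, 15.2% of all genes and 30.1% of those at or above F11 were called higher in Atf6a-/- livers, and 3.45% and 9.11% in wild-type livers. In Atf6a-/- livers 4 of the 5 fibrinogen and factor XIII genes fell and 1 rose. F13b, the carrier subunit of factor XIII, fell by 5.38 ± 0.32, Fgg by 3.49 ± 0.31, Fga by 3.21 ± 0.22 and Fgb by 1.17 ± 0.13, whereas F13a1, the catalytic subunit, which macrophages also make, rose by at least 1.30 ± 0.39 (adjusted p = 0.0233), a lower bound since its vehicle mean there was 4.35. In wild-type livers 0 of these 5 passed, and Fga, Fgb and Fgg differed by 0.01, 0.07 and -0.10. Fgg thus had a mean of 10.72 in Atf6a-/- TM livers, against 14.07 in wild-type TM livers. The fibrinogen and factor XIII interaction passed for 4 of 5, all negative. Of all genes 6.69% passed in this direction, and 17.3% of those at or above F11.

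Of 10 other anticoagulant proteins 5 fell and 2 rose in Atf6a-/- livers, and 1, Proz, fell in wild-type livers, against 12.8% of all genes lower and 15.2% higher in Atf6a-/- livers. Hrg, which encodes the heparin-binding histidine-rich glycoprotein, fell by 5.89 ± 0.24 (adjusted p = 1.67e-08), with means of 7.89 in Atf6a-/- TM livers and 13.24 in wild-type TM livers. Serpina10, the inhibitor that works with protein Z, fell by 1.81 ± 0.18, Apoh by 1.54 ± 0.13 and Pros1, the cofactor of protein C, by 1.51 ± 0.28. Thbd and Procr, the endothelial receptors through which protein C is activated, rose by 2.11 ± 0.21 and by at least 0.91 ± 0.31 (adjusted p = 8.92e-06 and 0.0486). The Procr vehicle mean lay under the highest array median, and its groups overlapped, with Atf6a-/- TM animal 3 at 4.65 and Atf6a-/- vehicle animal 3 at 4.81. In the plasmin system 2 of 5 measured genes fell, against 12.8% of all genes and 28.0% of those at or above F11, Plg by 1.65 ± 0.14 and Serpinf2 by 1.20 ± 0.24, and Plaur, the urokinase receptor, rose by 1.99 ± 0.23 in Atf6a-/- livers and by 0.92 ± 0.23 in wild-type livers. F8 and Vwf, which endothelial cells make, differed by -0.12 ± 0.16 and 0.23 ± 0.25 and did not pass. F3, tissue factor, fell by 1.06 ± 0.19 in Atf6a-/- livers, a lower bound since its mean after TM there was 3.92.

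Marker lists of other cells changed only in part. For comparison, 12.8% of all genes were called lower and 15.2% higher in Atf6a-/- livers after TM, and 28.0% and 30.1% of those at or above F11. The 9 Kupffer cell and macrophage markers had mean levels of 8.03 to 8.56 in Atf6a-/- TM, 7.42 to 7.81 in wild-type TM, 7.62 to 8.21 in Atf6a-/- vehicle and 7.65 to 7.90 in wild-type vehicle livers, with 3 higher and 4 lower of 9 after TM in Atf6a-/- livers and a median difference of -0.55. Differences in this list ran from -2.24 to 5.63 in Atf6a-/- livers. The largest rise was that of Cd14, with means of 11.39 in Atf6a-/- TM and 5.77 in Atf6a-/- vehicle livers. The 7 neutrophil markers were at 5.61 to 6.38 in Atf6a-/- TM, 5.29 to 5.73 in wild-type TM, 4.76 to 4.97 in Atf6a-/- vehicle and 4.88 to 5.04 in wild-type vehicle livers. Of these 7, 2 were higher in Atf6a-/- livers after TM, S100a8 at a mean of 9.52 against 4.85 and S100a9 at 9.07 against 5.33, and 5 did not pass, with a median over the list of -0.05. The 9 endothelial markers were at 7.27 to 7.65 in Atf6a-/- TM, 7.20 to 7.36 in wild-type TM, 7.50 to 7.88 in Atf6a-/- vehicle and 7.58 to 7.70 in wild-type vehicle livers, with 2 of 9 lower and 7 not called in Atf6a-/- livers. Their part in the results was not tested.

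Genes that act on clotting proteins inside the cell moved in both directions. Of the 5 genes of the vitamin K cycle 2 fell and 1 rose in Atf6a-/- livers, and 1 rose in wild-type livers. The shares in Atf6a-/- livers were 12.8% lower and 15.2% higher over all genes, and 28.0% and 30.1% at or above F11. In wild-type livers 3.45% of all genes and 9.11% of those at or above F11 were higher. Ggcx, the gamma-glutamyl carboxylase, fell by 0.92 ± 0.15 in Atf6a-/- livers (adjusted p = 5.74e-04) and differed by -0.57 ± 0.15 in wild-type livers, under the fold limit. Aifm2, which can reduce vitamin K, fell by 1.05 ± 0.15 in Atf6a-/- livers, Vkorc1l1 rose by 0.84 ± 0.20 in Atf6a-/- and by 0.88 ± 0.20 in wild-type livers, and Vkorc1, the epoxide reductase that warfarin blocks, differed by 0.02 ± 0.12 and 0.12 ± 0.12. Furin, a protease that removes propeptides, fell by 2.24 ± 0.12 in Atf6a-/- livers and differed by -0.04 ± 0.12 in wild-type livers. Lman1 and Mcfd2, whose products carry factors V and VIII out of the ER, rose in both: Lman1 by 1.40 ± 0.12 in Atf6a-/- and 0.80 ± 0.12 in wild-type livers, and Mcfd2 by 2.13 ± 0.19 and 1.40 ± 0.19. F5, whose product is such a cargo, thus fell in Atf6a-/- livers while Lman1 and Mcfd2 rose.

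Of 9 measured liver factors known to act on clotting gene promoters, 4 fell in Atf6a-/- and 2 in wild-type livers, against 12.8% and 3.86% of all genes and 28.0% and 8.39% of those at or above F11. Hnf4a fell by 1.18 ± 0.16 in Atf6a-/- livers (adjusted p = 1.18e-04) and by 0.71 ± 0.16 in wild-type livers (adjusted p = 0.0199), and Cebpa by 3.42 ± 0.24 (adjusted p = 6.41e-07) and 1.26 ± 0.24 (adjusted p = 0.00659). The interaction passed for Cebpa (-2.16 ± 0.33, adjusted p = 0.00161) and not for the brightest Hnf4a probe set (-0.47 ± 0.23, adjusted p = 0.261). The next brightest Hnf4a probe sets had means of 8.27 and 8.16 in Atf6a-/- TM livers, against 9.73 and 9.63 after vehicle. In wild-type livers they were at 9.10 and 9.11 after TM and 9.79 and 9.85 after vehicle. The dimmest was at 6.82 and 7.26 in Atf6a-/- livers and at 6.96 and 7.43 in wild-type livers. The Hnf4a values thus varied with the probe set. Nr2f2, which encodes COUP-TFII, fell by 1.27 ± 0.10 in Atf6a-/- livers, and Cebpb differed by -0.06 ± 0.18. Onecut1, which encodes HNF6, was lower by 1.97 ± 0.28 in Atf6a-/- livers, a lower bound since its mean after TM there was 4.46.

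**Figure D4:**
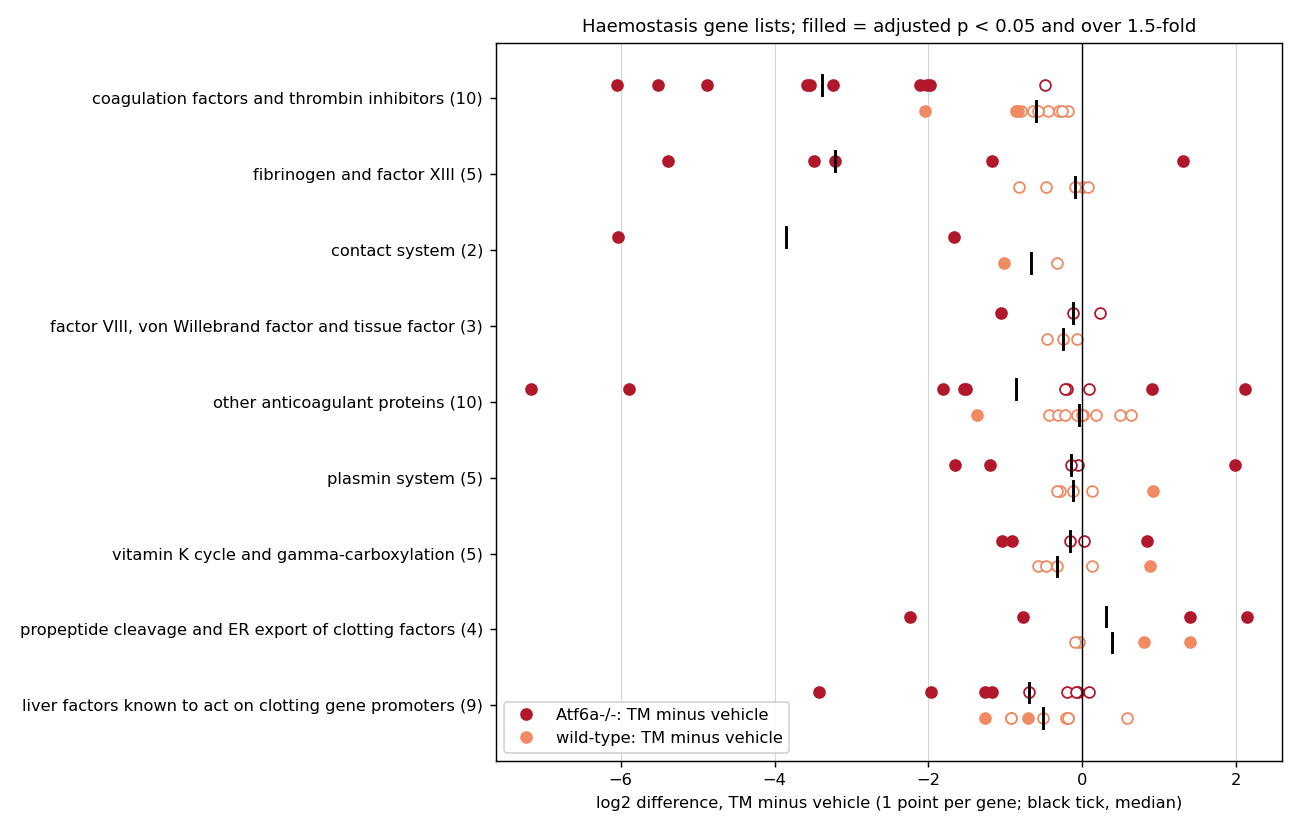
Log2 difference, TM minus vehicle (horizontal axis), of each measured gene of the 10 clotting transcripts and of 8 further haemostasis lists, with 1 point per gene, the number of genes in brackets and a black tick at the median. Atf6a-/- points spread from Proz at -7.16 to Mcfd2 at 2.13, and filled points passed adjusted p under 0.05 and 1.5-fold.

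Genes with the most similar pattern were found by the root mean square distance of log2 levels, each centred on its wild-type vehicle mean, over the 12 arrays. For F7 these were Pipox, Apon and Abcg5 (0.19, 0.22 and 0.25), for Serpind1 Sema4g, Ugt2b36 and Hp (0.21, 0.27 and 0.28), and for Proc Ppara, Acsm3 and Hgd (0.25, 0.27 and 0.29). F9 and F10 shared Ugt3a2 among their nearest 3 (0.15 and 0.17), and F5 and F12 shared Cps1 (0.21 and 0.17). Among the members themselves, F2 and F12 were closest to each other (0.22), F9 and F10 likewise (0.24), and F7 and Serpind1 likewise (0.38), while the member nearest to Serpinc1 was F2 at 0.75, ranked 15028 among all genes. F11 had no close neighbour, with Cyp4f14 the nearest at 0.42.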

How the data were processed

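The authors deposited log2 values that they made by RMA from Affymetrix arrays of 1 liver each. The submitters' processing notes list affy and limma without versions. These values were used as deposited, without the 64 control probe sets, and 1 mean per group was fitted with limma 3.58.1 in R 4.3.3 over 45037 probe sets. All tests were two-sided, and p-values were adjusted over all probe sets by the Benjamini-Hochberg method. A call needed adjusted p under 0.05 and over 1.5-fold. No fold is given for a group mean under the highest array median (4.71). Gene symbols came from the platform annotation, which gave 34945 probe sets 1 symbol, 932 several and 9160 none. Ppia, used with Btf3 for a scaling alternative, was taken by its transcript. Members, lists and the rule for named genes were chosen with earlier results of these data known. The rule took all members, Atf6, any gene of the lists with the largest called rise and fall of each, and the 3 genes nearest to each member. The Xist levels and the motif letters were added after the values or the sequences had been seen. On simulated data for the Atf6a-/- response (45037 probe sets), 81% of changes of 1 log2 unit and 95% of 2 were recovered, with 10 false calls. The number of arrays, 3 a group, limits precision. Tables were made in Python 3.11.15 with numpy 2.4.6 and pandas 2.3.3, and figures with matplotlib 3.10.9. Alternatives covered normalization, scaling, filters, the choice of probe set, samples and test, the Xist level as a covariate, animal number as a block, and leaving out each animal.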

Additional observations from a re-analysis of the deposited data

Results flagged for a closer look

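The response to TM differed between Atf6a-/- and wild-type livers, by the interaction term of the limma fit, in 8 clotting transcripts. The interaction was -1.67 for F2, -1.93 for F5, -5.25 for F7, -2.90 for F9, -2.38 for F10, -1.58 for F12, -4.03 for Proc and -4.94 for Serpind1 on the log2 scale. In each the Atf6a-/- response was the more negative. Groups of 3 animals are too small for a test of single outlying animals.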

How the results depend on the processing

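With the arrays shifted by Btf3 and Ppia, 20714 probe sets changed in Atf6a-/- livers after TM (2632 higher, 18082 lower) and 11198 between genotypes after TM (1597 and 9601), against 9480 (5345 and 4135) and 6458 (3825 and 2633), and the interaction split into 793 higher and 5152 lower, against 2532 and 2033. With spike-in scaling, chosen after seeing the data, 17334 changed in Atf6a-/- livers (14983 higher, 2351 lower) and 4493 in wild-type livers (3891 and 602, against 1179 and 1174), while the splits were 6297 and 1925 between genotypes after TM and 2914 and 1460 for the interaction. Only 1 clotting transcript then passed in wild-type livers, and differences turned to 0.0038 for Serpinc1 in Atf6a-/- livers and to 0.016 for F2, 0.13 for F5 and 0.056 for Serpinc1 in wild-type livers. The wild-type count of clotting transcripts was 1 with only those groups fitted and 0 by the methods' t-test once its p-values were adjusted. It was 0 at adjusted p under 0.01 and over 2-fold, and 0 to 4 with 1 animal left out. By the methods' t-test after adjustment 1 probe set passed in wild-type livers and 0 after vehicle, against 2580 and 38 unadjusted. Between genotypes after TM 1253 passed after adjustment, with 5 of the 10 transcripts, against 5884 probe sets unadjusted. The stricter limit left 5488 probe sets in Atf6a-/- livers, 859 in wild-type livers, 2985 between genotypes after TM and 1949 for the interaction.

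After vehicle, differences between genotypes were near 0 and turned sign under several settings. Values were 0.0010 for Proc on repeated quantile normalization, 0.0064 (cyclic loess), 0.0075 (Btf3 and Ppia) and 0.0076 (array weights) for F2, 0.0036 for Serpinc1 with array weights, and 0.040 and 0.071 for F10 by the mean of its probe sets and by the second. Spike-in scaling gave 0.057 for F2, 0.038 for F5, 0.033 for F10, 0.031 for Proc and 0.040 for Serpinc1. With 1 animal left out, ranges were -0.094 to 0.080 for F2, -0.10 to 0.069 for F5, -0.096 to 0.27 for F7, -0.032 to 0.15 for F9, -0.11 to 0.049 for F10, -0.30 to 0.86 for F11, -0.068 to 0.023 for Proc and -0.096 to 0.084 for Serpinc1, and 0 to 4 probe sets changed. In wild-type livers after TM, F5 ran between -0.32 and 0.028.

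The labels do not pair same-numbered animals: over 18 pairs r ran between -0.18 and 0.37, over 0.1 in 8, among them all 3 pairs of the animals numbered 1 with high Xist (0.37, 0.21 and 0.18). With the replicate block, 9, 3 and 8 transcripts passed in Atf6a-/- livers, in wild-type livers and between genotypes after TM, and F7 passed (adjusted p = 0.0213) and Proc did not (adjusted p = 0.0594) in wild-type livers. With 3 arrays a group, small wild-type differences could not be settled. In Atf6a-/- TM livers F7 lay near the array median, as did F11 in animal 1 (4.83) but not in animals 2 and 3 (5.82 and 6.47). The interaction had 26 alternatives, not 29, since neither the fit of only the groups compared nor the t-tests give one.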
